A study of Mus musculus with 10 samples.

Results

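A set of 100 genes rose for a few days early in reprogramming and then fell again, in the presence of FoxO6 and in its absence. They were chosen from 11491 genes with a mean of at least 5 TPM (transcript abundance scaled for gene length and library size) over 10 libraries, out of 50600 genes in the files. For each gene and arm, the peak was the mean log2(TPM + 1) of days 1 and 3 minus the larger value of days 0 and 7, and the 100 genes with the largest value of the smaller of the 2 peaks were taken. The levels of days 0, 1, 3 and 7 therefore chose the members, and the peak and its day are given below as a description, without a test. The level on day 5 entered only the filter on the mean, and the difference between the arms was not used.

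Mouse embryonic fibroblasts (MEFs) from E13.5 embryos of a CBA/CaJ X C57BL/6J cross were infected with retroviruses carrying Oct4, Klf4 and Sox2 (OKS). One arm also received a retrovirus for FoxO6, a forkhead transcription factor of the FoxO family, and the control arm received DsRed, a red fluorescent protein, labelled DR. Both arms were cultured in iCD1 medium, a defined medium for reprogramming, and RNA was taken at days 0, 1, 3, 5 and 7. Each arm gave 1 library per day, so no difference on a single day has a replicate check. In such bulk RNA, fewer cells of a type and less RNA per cell cannot be told apart. Both arms received the OKS viruses. The study's methods describe the MEFs as carrying an Oct4-GFP reporter.

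The libraries held between 1208379 and 2225750 expected counts. Foxo6 ranged from 0.61 to 2.29 TPM in the 5 OKS + DsRed libraries and from 762.11 to 1356 TPM in the 5 OKS + FoxO6 libraries, as the labels say. The summed level of 5 fibroblast markers (Col1a1, Col1a2, Thy1, Pdgfra and Pdgfrb) fell from 3306 TPM at day 0 to 386 TPM at day 7 in OKS + DsRed and from 2841 to 864 TPM in OKS + FoxO6. Col1a2 carried the difference between the arms at day 7, with 262 and 758 TPM, while the other 4 markers together fell from 1690.2 to 125.0 TPM in OKS + DsRed and from 1505 to 106.9 TPM in OKS + FoxO6. A pair of libraries stood apart in transcript length. Relative to the other libraries, transcripts of 5000 bases lay below those of 1000 bases by a log2 difference of -0.40 in OKS + DsRed at day 0 and of -0.58 in OKS + FoxO6 at day 7, against -0.02 to 0.19 in the other 8.

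In reprogramming, the transduced factors act on fibroblasts from the first days. Fibroblast genes are silenced early, epithelial genes follow in a mesenchymal-to-epithelial transition, and the pluripotency network is switched on last. Genes that rise and fall on the way belong to neither the starting nor the end state, and such transient genes are usually read from time courses of this kind. FoxO proteins act downstream of insulin and PI3K signalling and bind DNA through a conserved forkhead domain.

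Among all 11491 genes, 2045 (17.8%) had a peak above 0 in both arms, and for 38 genes, all of them members, both peaks exceeded 1, a 2-fold rise on this scale. The smaller peak ran from 3.99 for the first member, Gm38356, to 0.715 for the last, Pfn2. The last 5 members were Dixdc1, Tbc1d30, Spin2c, Amer1 and Pfn2, with smaller peaks of 0.721 to 0.715, and the 5 genes just outside were Kansl1l at 0.707, Prkx at 0.703, Srp54c at 0.694, Gm10479 at 0.689 and Ube2ql1 at 0.686. The order passes through the limit without a gap. The median peak was 1.12 in OKS + DsRed and 1.02 in OKS + FoxO6, and 59 members had the larger peak in OKS + DsRed.

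**Figure D1:**
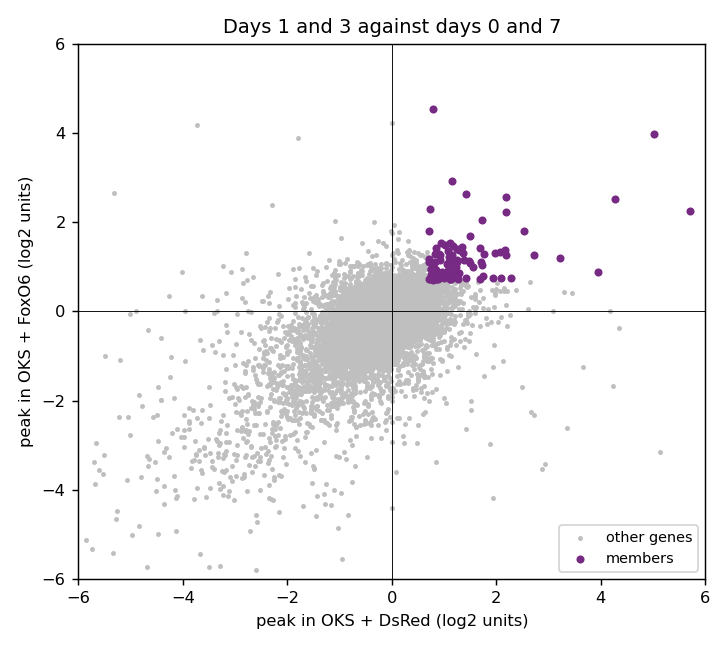
Each point is 1 of the 11491 genes, with its peak in OKS + DsRed on the x axis and its peak in OKS + FoxO6 on the y axis, both in log2 units (mean of days 1 and 3 minus the larger of days 0 and 7). The 100 members (purple) fill the upper right corner by construction, with no gap to the other genes (grey), and 16 genes lie outside the drawn range.

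When the genes were ranked in 1 arm alone, the other arm gave a value that the ranking had not used. Of the first 100 genes by the peak in OKS + DsRed, 60 had a peak above 0 in OKS + FoxO6, where 35.2% of all genes had one, and 27 of them are members. Of the first 100 genes by the peak in OKS + FoxO6, 74 had a peak above 0 in OKS + DsRed, where 34.0% of all genes had one, and 46 are members. Among genes with at least 100 reads these counts were 71, against 35.7% of all such genes, and 70, against 34.4%.

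The regulatory regions just upstream of 3 members are shown because these genes are described in detail below and stand for the different courses between the arms: Strip2 peaked in both and was higher in OKS + FoxO6, Adh7 had the smallest standard error among the members shifted over 2-fold between the arms, and Abca1 had the most reads of all members. Each line gives the 250 bases before the start of transcription on the gene's own strand, from RefSeq on GRCm38.p6, 5′ to 3′, with matches to short motifs in capitals. The motifs were searched on both strands: the FoxO core GTAAACA, AP-1 TGANTCA, CRE TGACGTC, the E-box CACGTG, TCF CTTTGAT, the octamer ATGCAAA, the KLF site GGGCGTG, the GC box GGGCGGG, the CCAAT box CCAATCA and the TATA box TATAAA. No pair of matches overlaps in these 3 sequences.
Strip2, chr6:29916763-29917012, plus strand: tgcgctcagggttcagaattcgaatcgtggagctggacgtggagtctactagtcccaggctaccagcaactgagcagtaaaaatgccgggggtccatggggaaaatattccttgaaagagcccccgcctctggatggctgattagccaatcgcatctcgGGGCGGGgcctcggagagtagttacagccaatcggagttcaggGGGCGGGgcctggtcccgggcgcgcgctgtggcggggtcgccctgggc
Adh7, chr3:138217523-138217772, plus strand: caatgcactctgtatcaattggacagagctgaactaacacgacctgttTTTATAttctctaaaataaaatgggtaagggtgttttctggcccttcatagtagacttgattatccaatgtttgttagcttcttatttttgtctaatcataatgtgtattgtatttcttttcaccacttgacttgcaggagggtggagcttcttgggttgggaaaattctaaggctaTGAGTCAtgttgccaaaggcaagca
Abca1, chr4:53159896-53160145, minus strand: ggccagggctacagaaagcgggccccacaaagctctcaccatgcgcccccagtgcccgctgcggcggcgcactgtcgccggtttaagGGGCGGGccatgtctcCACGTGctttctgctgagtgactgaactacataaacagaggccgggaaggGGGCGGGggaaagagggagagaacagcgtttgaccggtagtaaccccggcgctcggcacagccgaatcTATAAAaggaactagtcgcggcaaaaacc
Strip2 holds 2 GC boxes, 91 and 48 bases before the start, in a sequence of 62% G and C. Adh7, with 38% G and C, holds an AP-1 match 25 bases before the start and a TATA box on the other strand 202 bases before it. Abca1 holds GC boxes 163 and 97 bases, an E-box 147 bases and a TATA box 29 bases before the start.

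Promoters were found for 70 of the 100 members (90 promoters) and for 8809 of the 11491 genes. Since fewer than 80% of the members had a promoter in the table, a comparison of motifs or base composition over the set is void, and the shares are given only as a description. In windows of 300 bases around the start, each motif is given by its share of the members' promoters, then of the promoters of the genes from which the members were drawn, then of all 32851 promoters. The GC box stood in 44.4%, 47.7% and 25.6%, the E-box in 16.7%, 10.1% and 7.15%, and the KLF site in 8.9%, 15.5% and 8.44%. The AP-1 motif stood in 4.4%, 4.87% and 7.81%, the TATA box in 6.7%, 6.93% and 13.6%, and the CCAAT box in 7.8%, 10.2% and 7.82%. For the TCF motif the shares were 4.4%, 2.48% and 3.73%, for the octamer 2.2%, 3.42% and 4.63% and for CRE 1.1%, 5.34% and 3.21%. The FoxO core stood in 2.41% of the promoters of the genes drawn from, in 3.65% of all promoters and in 0 of the 90 of the members, which says only that these letters are not in the windows searched.

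The median level of the members, as log2(TPM + 1), took the values 2.98, 4.71, 4.36, 3.79 and 3.15 over the 5 sampled days in OKS + DsRed and 3.43, 4.88, 4.84, 4.43 and 3.14 in OKS + FoxO6. Here and below, values for single libraries are listed in the order of days 0, 1, 3, 5 and 7. The median over all 11491 genes stayed between 4.81 and 5.06 in the 10 libraries. The single highest library was day 1 for 64 members, day 3 for 31 and day 5 for 5 in OKS + DsRed. In OKS + FoxO6 it was day 1 for 35 members, day 3 for 46 and day 5 for 19. The same day was highest in both arms for 43 members, and whether the highest day was related between the arms was not tested.

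**Figure D2:**
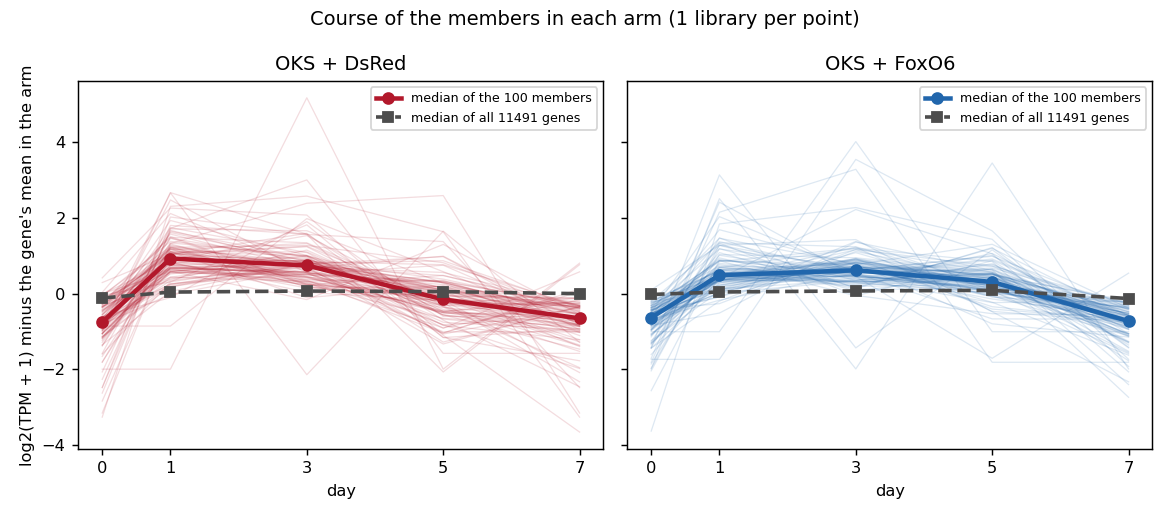
Levels by day in OKS + DsRed (left) and OKS + FoxO6 (right), as log2(TPM + 1) minus the mean of the gene in that arm, with 1 library per day. Thin lines are the 100 members, the thick line is their median and the dashed line is the median of all 11491 genes. The members' median is below the dashed line at days 0 and 7 and above it at days 1 and 3, as the selection requires, and at day 5 it lies below the dashed line in OKS + DsRed and above it in OKS + FoxO6.

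Day 5 was not part of the peak, and the members' level on that day, relative to days 1 and 3, differed between the libraries of the 2 arms. In OKS + DsRed the level on day 5 was below the mean of days 1 and 3 for 91 members, against 49.2% of all genes, and in OKS + FoxO6 for 72, against 47% of all genes. The median of this difference was -0.90 in OKS + DsRed and -0.26 in OKS + FoxO6 on the log2(TPM + 1) scale, while it was 0.01 and 0.03 over all genes. Since the members were picked for high values on days 1 and 3, a lower value on day 5 is in part fixed by the choice. The level on day 5 was still above both day 0 and day 7 for 64 members in OKS + DsRed (37.5% of all genes) and for 90 in OKS + FoxO6 (40.3% of all genes). It lay between the peak and the base in both arms for 32 members. This holds for 2.05% of all genes and for 11.5% of the 2045 genes with a peak above 0 in both arms, a condition that the members meet by their choice.

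Day 5 was farther below days 1 and 3 in OKS + DsRed than in OKS + FoxO6 for 86 of the 100 members, where 52.8% of all genes and 64.8% of the 2045 genes with a peak above 0 in both arms had this order. The levels of days 1 and 3 in this measure also chose the members, so the count is given without a test. Among the 85 members with at least 100 reads it was so for 75, against 52.9% of all genes with that many reads, and among the 89 members with a mean of at least 5 TPM in each arm for 77, against 53.2% of such genes. Each arm has 1 library on day 5, so the difference compares these libraries. The order was found for 86 members with the trend with transcript length removed from each library. For Itga4, the integrin alpha 4 subunit that pairs with beta 1 or beta 7 in adhesion to fibronectin and VCAM-1, the OKS + DsRed libraries held 7.82, 44.6, 29.4, 10.7 and 7.62 TPM, against 8.31, 30.3, 23.3, 23.2 and 9.92 TPM in OKS + FoxO6. Its level had come back near that of day 0 by day 5 in OKS + DsRed, and stood at that of day 3 in OKS + FoxO6. For Mxd4, a MAX partner that represses MYC targets, these values were 33.1, 139.3, 138.9, 46.4 and 35.7 TPM in OKS + DsRed and 42.2, 141.6, 212, 162.9 and 102 TPM in OKS + FoxO6.

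**Figure D3:**
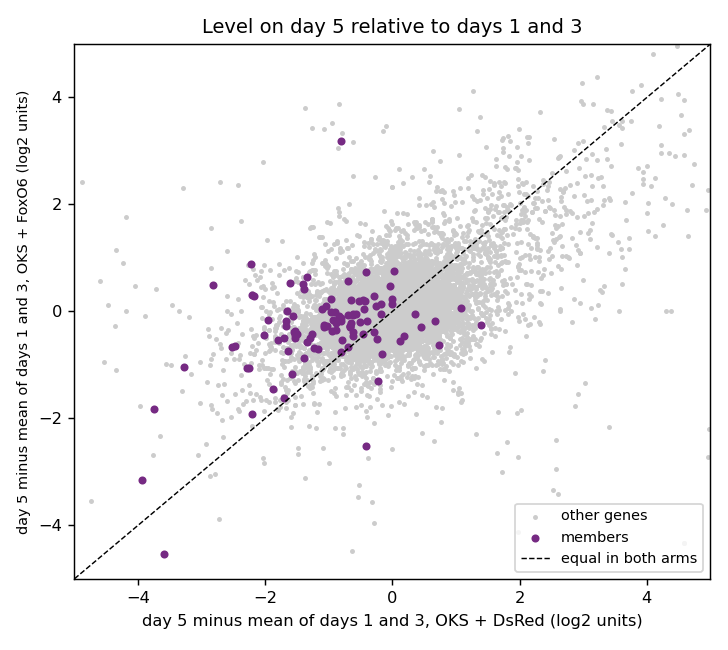
Each point is a gene, with the level on day 5 minus the mean of days 1 and 3 in OKS + DsRed (x axis) and in OKS + FoxO6 (y axis), in log2 units of TPM + 1. Members are purple, other genes grey, and the dashed line marks equal values. Of the 100 members, 86 lie above the line.

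The extremes of the day 5 level were partly genes with few reads. The 5 members with the lowest day 5 level against days 1 and 3, by the mean of both arms, were Gm13835 (97 reads in the 10 libraries), Gm47524 (13 reads), Gm14308 (50 reads), Akr1c18 (468 reads) and Cd200r2 (184 reads). Akr1c18, an aldo-keto reductase that inactivates progesterone, had 31.1, 114.3, 100.4, 10.2 and 0.90 TPM in OKS + DsRed and 38.1, 54.7, 82.5, 32.2 and 26.3 TPM in OKS + FoxO6. At the other end stood Gm48275 (36 reads), Wdr47 (534 reads), Mamdc4 (95 reads), Gm47327 (10 reads) and Dynlt1c (429 reads). Wdr47, a microtubule-associated protein of neurons, was highest on day 5 in OKS + DsRed, with 7.84, 29.5, 17.1, 48.8 and 12.9 TPM, and ranged from 9.06 to 20.6 TPM in OKS + FoxO6. Its 64 reads on day 5 in OKS + DsRed equalled the 64 reads of OKS + FoxO6, in libraries of 1357802 and 2059623 counts.

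Between the arms, day 5 had the most members over 2-fold higher in OKS + FoxO6 and the largest median difference. A level over 2-fold higher in OKS + FoxO6 was found for 15 members on day 0 (7.87% of all genes), 11 on day 1 (5.39%), 20 on day 3 (5.62%), 40 on day 5 (7.69%) and 26 on day 7 (6.67%). A level over 2-fold lower was found for 3 members on day 0 (4.2% of all genes), 10 on day 1 (6.47%), 10 on day 3 (8.42%), 5 on day 5 (7.8%) and 14 on day 7 (12.7%). Markers of cell state also differed on day 5. Among the fibroblast markers this was Col1a2, with 374 TPM in OKS + DsRed and 1119 TPM in OKS + FoxO6, while the other 4 together had 92.8 and 104.5 TPM. The summed level of 4 epithelial markers (Cdh1, Epcam, Krt8 and Krt18) was 274 TPM in OKS + DsRed and 54.6 TPM in OKS + FoxO6, and that of 4 pluripotency markers (Nanog, Esrrb, Zfp42 and Dppa5a) was 39.8 and 12.2 TPM. Their part in the members' difference was not tested. The 5 lower members on day 5 were Gm13092, Osbpl6, Tmc8, Per2 and Wdr47. The median difference, OKS + FoxO6 minus OKS + DsRed, was 0.35, -0.05, 0.23, 0.70 and 0.04 for the members and 0.11, 0.00, 0.01, 0.03 and -0.13 for all genes. Among members with at least 100 reads, 35 of 85 were over 2-fold higher on day 5, against 7.19% of all such genes.

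A shift of the whole time course was tested with edgeR's quasi-likelihood test on the counts. Day was a term of the fit, and p-values were adjusted by Benjamini and Hochberg's method over 11028 genes. Of the 81 members that passed its filter on low counts, 24 were higher in OKS + FoxO6, where 6.86% of all genes tested were, and 9 were lower, where 7.09% of all genes were. At an unadjusted p under 0.05 there were 47 of the 81 members, against 27.9% of all genes tested. The other 19 members had too few counts to be tested. Since the libraries of an arm could stem from a single infected culture, the test describes these time courses and not separate infections. Of the 67 members that did not pass the threshold or were not tested, 20 were over 2-fold higher on day 5 in OKS + FoxO6, against 5.27% of all genes that were not past it.

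The filter on the mean TPM ran over both arms together, and 11 members passed it through 1 arm alone. The mean was under 5 TPM in OKS + DsRed for Cldn1, Frg2f1, Gm47327, Gprin3, Hist1h3i, Lcp1 and Rasal3, and in OKS + FoxO6 for Gm47524, Ndst3, Per2 and Spink2. These genes had to differ between the arms to be members, and Cldn1, Gprin3, Lcp1 and Per2 are among the calls above. Of the 89 members with a mean of at least 5 TPM in each arm, 76 were tested, and 21 were higher in OKS + FoxO6 and 8 lower, against 6.77% and 6.4% of all such genes. On day 5, 33 of the 89 were over 2-fold higher and 4 lower, against 7.08% and 6.19%.

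**Figure D4:**
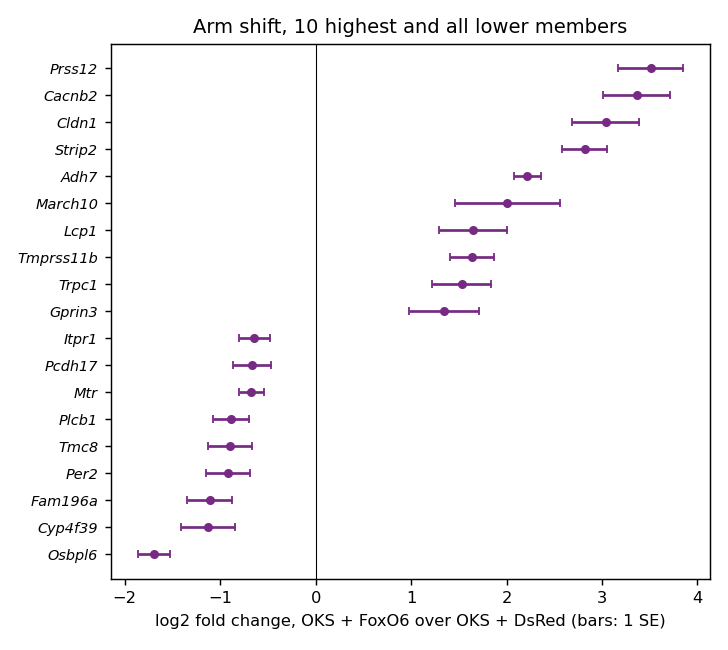
The log2 fold change of OKS + FoxO6 over OKS + DsRed across the 5 days (x axis, edgeR, bars of 1 standard error) is drawn for the 10 highest and the 9 lower of the 33 members past the adjusted threshold. The 10 highest run from 1.34 for Gprin3 to 3.51 for Prss12, and the 9 lower ones from -0.65 for Itpr1 to -1.70 for Osbpl6. Cldn1, Gprin3 and Lcp1 passed the filter on the mean TPM only through OKS + FoxO6, and Per2 only through OKS + DsRed.

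The largest shift was that of Prss12 (neurotrypsin, a secreted serine protease of synapses). It had 4.87, 8.84, 13.5, 1.15 and 0.40 TPM in OKS + DsRed and 32.1, 68.5, 122, 57.9 and 29.0 TPM in OKS + FoxO6. All libraries of OKS + FoxO6 were above all those of OKS + DsRed, and in both the highest was day 3. The log2 fold change was 3.51 ± 0.34 (SE, edgeR, adjusted p = 0.00016), although the OKS + DsRed libraries of days 5 and 7 held 2 reads and 1 read.

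Cacnb2, a beta subunit of voltage-gated calcium channels, had 8.0, 12.5, 16.9, 5.10 and 3.49 TPM in OKS + DsRed and 33.2, 83.4, 122.8, 159.6 and 59.1 TPM in OKS + FoxO6. The arms did not overlap, and the highest day was day 3 in the first and day 5 in the second. Its log2 fold change was 3.36 ± 0.35 (SE, adjusted p = 0.00023 with edgeR). Cldn1, a claudin of tight junctions that passed the filter on the mean only through OKS + FoxO6, was at 0 to 3.67 TPM in OKS + DsRed and at 8.54 to 28.4 TPM in OKS + FoxO6, with a log2 fold change of 3.04 ± 0.35 (SE, edgeR, adjusted p = 0.00038).

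Adh7, the class IV alcohol dehydrogenase that oxidizes retinol and ethanol, is on chromosome 3 from 138217760 to 138233382 on the plus strand of GRCm38. It had 29.9, 71.7, 97.2, 43.3 and 44.5 TPM in OKS + DsRed and 144.8, 256, 433, 297 and 201 TPM in OKS + FoxO6. The lowest library of OKS + FoxO6 was above the highest of OKS + DsRed, and day 3 was highest in both. The log2 fold change was 2.21 ± 0.14 (SE, edgeR, adjusted p = 1.8e-05).

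Strip2, a subunit of the STRIPAK phosphatase and kinase complex with a part in cell shape, is on chromosome 6 from 29917012 to 29959681 on the plus strand. It had 4.52, 20.1, 14.98, 8.52 and 2.44 TPM in OKS + DsRed and 20.9, 88.9, 126.5, 81.7 and 25.0 TPM in OKS + FoxO6. Each library of OKS + FoxO6 was above the highest of OKS + DsRed. The log2 fold change was 2.82 ± 0.23 (SE, adjusted p = 7.0e-05 with edgeR). Of the 33 shifts, those of Adh7, Cldn1, Cacnb2, Prss12 and Osbpl6 passed the threshold under each of 11 alternative fits, and those of Strip2, Tmprss11b, Itpr2, Neat1, Sestd1 and Garem1 under all but the fit without a day term.

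**Figure D5:**
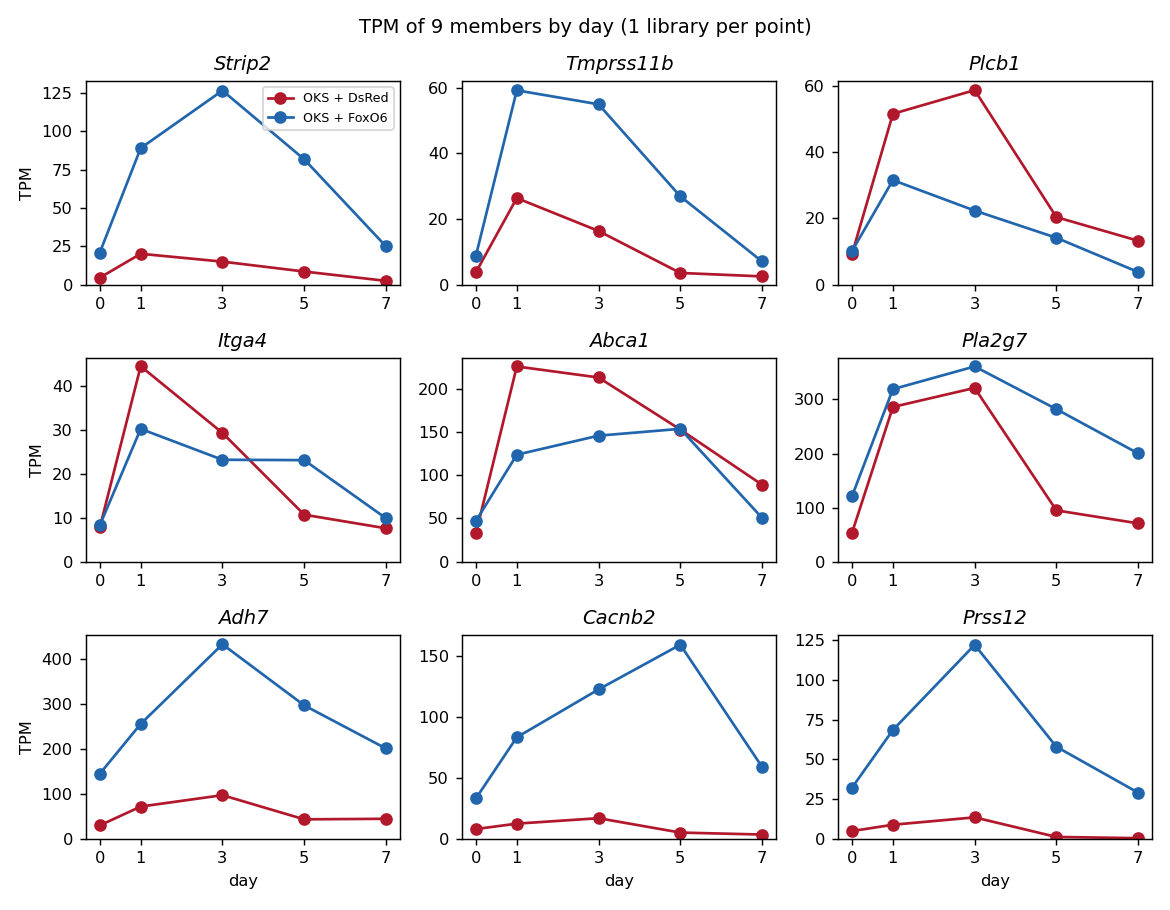
TPM (y axis, linear, from 0, scaled per gene) by day (x axis) of 9 members in OKS + DsRed (red) and OKS + FoxO6 (blue), with 1 library per point. Strip2, Tmprss11b, Adh7, Cacnb2 and Prss12 were higher in OKS + FoxO6 on each of the 5 days, while Plcb1, Itga4 and Abca1 were higher in OKS + DsRed on days 1 and 3.

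The other members among the 10 highest shifts were March10, Tmprss11b and Trpc1, with log2 fold changes of 2.01, 1.64 and 1.53, and Lcp1 and Gprin3, with 1.65 and 1.34. Lcp1 and Gprin3 passed the filter on the mean only through OKS + FoxO6. Of these other members, March10, Lcp1, Trpc1 and Gprin3 did not pass the adjusted threshold without day 3, March10 and Gprin3 did not without day 5, and March10 did not with DESeq2. The lower members were Osbpl6, Cyp4f39, Fam196a, Per2, Tmc8, Plcb1, Mtr, Pcdh17 and Itpr1. Among these, leaving out day 3 ended the call for all but Osbpl6, and leaving out day 1 ended it for Cyp4f39, Fam196a, Per2, Tmc8, Pcdh17 and Itpr1. Over all 33 members past the threshold, leaving out day 3 ended 20 calls, day 5 ended 16, day 1 ended 6 and days 0 and 7 ended 5 each. DESeq2 in place of edgeR ended the calls of 7: March10, Sema3e, Aldh3a2, Cyp4f39, Per2, Tmc8 and Pcdh17. Of the 24 members called higher, 21 were higher on all 5 days on the log2(TPM + 1) scale, against 84.5% of all genes called higher. Of the 9 members called lower, 7 were lower on all 5 days, against 66.5% of all genes called lower.

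The members were grouped by what their products are known to do, a grouping made after their values were seen and covering 53 of them in 9 groups, with Lcp1 counted in 2 of these. The counts by group are a description and call nothing particular to it.

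Phosphoinositide and calcium signalling held 9 members. Phospholipase C cleaves PIP2 into diacylglycerol and inositol trisphosphate, which opens calcium channels of the endoplasmic reticulum. The phospholipases Plcb1 and Plch1 make the messenger, Itpr1 and Itpr2 are its receptors, Trpc1 and Cacnb2 belong to channels of the plasma membrane, Grpr is a receptor that couples to phospholipase C, Pld1 makes phosphatidic acid and Asph gives rise to calcium-binding proteins of the reticulum. All 9 were tested for the shift, 4 were higher in OKS + FoxO6 (Cacnb2, Trpc1, Itpr2 and Pld1) and 2 were lower (Plcb1 and Itpr1).

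Plcb1 had 9.28, 51.6, 58.8, 20.4 and 13.3 TPM in OKS + DsRed and 10.1, 31.6, 22.4, 14.2 and 3.79 TPM in OKS + FoxO6. The arms started at the same level, and OKS + FoxO6 was lower from day 1 on, with a log2 fold change of -0.89 ± 0.19 (SE, edgeR, adjusted p = 0.011). The receptors for inositol trisphosphate went opposite ways between the arms. Itpr1 had 16.7, 83.9, 52.9, 40.7 and 28.0 TPM in OKS + DsRed and 15.6, 28.6, 35.5, 30.2 and 7.83 TPM in OKS + FoxO6, a log2 fold change of -0.65 ± 0.16 (SE, edgeR, adjusted p = 0.024). Itpr2 had 6.01, 23.6, 16.1, 19.4 and 9.97 TPM in OKS + DsRed and 10.7, 26.6, 70.3, 51.5 and 25.4 TPM in OKS + FoxO6, a log2 fold change of 1.27 ± 0.19 (SE, edgeR, adjusted p = 0.0015). The call for Itpr1 was lost without day 1, day 3 or day 5, and the difference between the 2 shifts was not tested.

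Trpc1 had 3.90, 15.5, 5.88, 2.68 and 2.17 TPM in OKS + DsRed and 9.57, 11.9, 22.6, 12.6 and 5.46 TPM in OKS + FoxO6. It was highest on day 1 in the first and on day 3 in the second. Its neighbour Pls1, which encodes the actin bundler fimbrin, lies 2267 bases away on chromosome 9 and is a member too, with 1.70, 11.97, 7.52, 1.60 and 4.52 TPM in OKS + DsRed and 4.23, 14.6, 19.4, 12.2 and 7.05 TPM in OKS + FoxO6. Both genes lie on the minus strand, so counting by strand would not tell their reads apart. Whether the counting used strand is not given in the sources used here. In all, 6 pairs of members lay less than 1 Mb apart, among them Prss12 and Ndst3 (19569 bases), 1810049J17Rik and Pdzd2 (37812 bases) and Rasal3 and Cyp4f39 (49140 bases).

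Lipid and sterol handling held 5 members, of which 1 was higher and 2 were lower in OKS + FoxO6. Abca1, the transporter that passes cholesterol and phospholipid to apolipoprotein A-I and a classical target of the LXR receptors, is transcribed from the minus strand of chromosome 4, between 53030787 and 53159895. It had the most reads of all members, 10472, and 32.6, 226, 213, 152.7 and 89.0 TPM in OKS + DsRed against 47.1, 123.6, 145.6, 153.5 and 50.7 TPM in OKS + FoxO6. The rise from day 0 to day 1 was steeper in OKS + DsRed, the arms met on day 5, and the shift over the 5 days did not pass the threshold (log2 fold change -0.38 ± 0.17, SE, edgeR, adjusted p = 0.18).

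Pla2g7, a phospholipase that degrades platelet-activating factor, had 53.5, 286, 321, 94.8 and 70.9 TPM in OKS + DsRed and 121.3, 319, 361, 282 and 200.2 TPM in OKS + FoxO6. The levels of days 1 and 3 were close in the arms, and those of days 0, 5 and 7 were over 2-fold higher in OKS + FoxO6. Its shift of 0.82 ± 0.24 (log2, SE, edgeR, adjusted p = 0.042) was lost without day 0, day 5 or day 7. Osbpl6, an oxysterol-binding protein relative that carries lipid between membranes, went the other way, with 16.5, 38.8, 37.1, 32.1 and 14.7 TPM in OKS + DsRed and 5.45, 10.7, 19.5, 5.30 and 4.18 TPM in OKS + FoxO6. It was lower in OKS + FoxO6 on each day, by a log2 fold change of -1.70 ± 0.17 (SE, edgeR, adjusted p = 0.00017). Cyp4f39, a cytochrome P450 of fatty acid hydroxylation, was also lower, from 156 reads in all.

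The oxidoreductases of alcohols, aldehydes and steroids were Adh7, Aldh3a2, Akr1c18 and Gsto2. Aldh3a2, which oxidizes fatty aldehydes, had 40.7, 87.0, 68.1, 47.0 and 43.2 TPM in OKS + DsRed and 68.3, 116.1, 119.5, 74.3 and 52.5 TPM in OKS + FoxO6. Like Adh7 it was higher on each day, by a smaller log2 fold change of 0.49 ± 0.12 (SE, edgeR, adjusted p = 0.024), and the call was lost without day 3 or day 5 and with DESeq2. Gsto2, an omega-class glutathione transferase, had too few counts for the test.

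The proteases and their inhibitors were Tmprss11b, Prss12, Serpini1 and Spink2. Tmprss11b, a membrane-anchored serine protease of squamous epithelia, had 3.77, 26.4, 16.3, 3.55 and 2.5 TPM in OKS + DsRed and 8.83, 59.2, 54.9, 26.9 and 7.06 TPM in OKS + FoxO6. The day 1 level was far above that of day 0 in both, and it stayed in the list under each of the 12 other ways of choosing the members, as no other gene did. Its log2 fold change between the arms was 1.64 ± 0.24 (SE, edgeR, adjusted p = 0.0013). Serpini1 (neuroserpin, an inhibitor of tissue plasminogen activator) had 0.77, 30.5, 16.0, 18.4 and 4.08 TPM in OKS + DsRed and 2.48, 33.8, 21.1, 18.5 and 10.5 TPM in OKS + FoxO6. Its nearly equal TPM on day 5 came from 20 reads in OKS + DsRed and 63 reads in OKS + FoxO6, in libraries of 1357802 and 2059623 counts. Spink2, an inhibitor of acrosin, rests on 25 reads.

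Adhesion and guidance genes numbered 10, with Cldn1 and Sema3e higher and Pcdh17 lower in OKS + FoxO6, of which the call for Sema3e was lost without day 0, 3 or 5 and with DESeq2, and that for Pcdh17 without day 0, 1, 3 or 7, with DESeq2, with a minimum mean TPM of 5 and with an offset for length. Dsc2, the desmocollin of desmosomes and the single member found in the list of stratified epithelium genes, had 8.13, 39.6, 21.0, 7.55 and 5.71 TPM in OKS + DsRed and 8.16, 21.8, 15.8, 12.5 and 4.64 TPM in OKS + FoxO6. Its shift did not pass the threshold (adjusted p = 0.54, edgeR). Nrcam, a neural adhesion molecule of the immunoglobulin family, had 47.5, 131.7, 100.3, 38.9 and 12.1 TPM in OKS + DsRed and 42.2, 99.5, 117.7, 79.8 and 65.1 TPM in OKS + FoxO6. Dmd (dystrophin) had 42.5, 144.7, 130.7, 99.9 and 68.7 TPM in OKS + DsRed and 51.4, 98.1, 76.2, 99.7 and 25.7 TPM in OKS + FoxO6. On day 5, 8 of the 10 were at a higher level in OKS + FoxO6, as were 77 of all 100 members and 52.2% of all genes.

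Nuclear regulators numbered 7. Rb1, the retinoblastoma protein that holds back E2F, had 25.3, 67.3, 95.1, 79.2 and 44.7 TPM in OKS + DsRed and 36.9, 86.0, 81.8, 92.9 and 42.8 TPM in OKS + FoxO6, and its shift did not pass the threshold (adjusted p = 0.43, edgeR). Kdm5a, a histone H3K4 demethylase, had 6.55, 24.1, 28.3, 16.6 and 11.99 TPM in OKS + DsRed and 14.1, 32.8, 28.3, 21.8 and 10.9 TPM in OKS + FoxO6. The zinc finger gene Zfp62 was the single member among 267 genes named Zfp that passed the filter on mean TPM. Neat1, the long noncoding RNA that builds paraspeckles, had 89.6, 165.1, 240.0, 125.0 and 115.0 TPM in OKS + DsRed and 185.7, 316, 464, 318 and 194.4 TPM in OKS + FoxO6. It was highest on day 3 in both arms and higher in OKS + FoxO6 on each day, with a log2 fold change of 0.95 ± 0.11 (SE, edgeR, adjusted p = 0.00037). Per2, a core repressor of the circadian clock, was lower in OKS + FoxO6 on each day, with 2.95, 8.93, 13.3, 11.9 and 6.05 TPM against 2.67, 4.63, 8.35, 3.93 and 3.10 TPM. The log2 fold change of Per2 was -0.92 ± 0.23 (SE, edgeR, adjusted p = 0.024), and the call was lost without day 1, day 3 or day 5 and with DESeq2. Per2 passed the filter on the mean only through OKS + DsRed, the arm where it was higher.

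Regulators of actin and microtubules numbered 5 among those described, of which Lcp1 and Pls1 were higher in OKS + FoxO6. The call for Lcp1, which passed the filter on the mean only through that arm, was lost without day 3. That for Pls1 was lost without day 0, 3, 5 or 7. Pfn2 (profilin 2, which binds actin monomers) was the member at the limit of the list, with 100.2, 251, 198.2, 105.3 and 128.0 TPM in OKS + DsRed and 107.2, 191.9, 222, 167.7 and 125.4 TPM in OKS + FoxO6. Of the 6 genes of cilia and of copper, cobalamin or proton handling, Mtr (methionine synthase, which uses cobalamin) was lower, with 31.9, 131.8, 108.5, 87.2 and 54.2 TPM in OKS + DsRed and 26.3, 69.3, 55.0, 63.6 and 36.6 TPM in OKS + FoxO6. Wdr35, a subunit of the intraflagellar transport complex, had 33.8, 120.1, 132.6, 78.7 and 42.5 TPM in OKS + DsRed and 37.4, 80.7, 79.3, 64.8 and 39.6 TPM in OKS + FoxO6. The copper transporter Atp7a had 11.5, 39.3, 38.5, 24.3 and 15.8 TPM in OKS + DsRed and 20.9, 50.5, 44.4, 40.4 and 7.20 TPM in OKS + FoxO6. Neither of these passed the threshold of the shift, with adjusted p = 0.15 and 0.54 (edgeR).

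A group of 4 members, Cd200r2, Ltf, Lcp1 and Rasal3, is known mostly from leukocytes. Cd200r2, a receptor of the CD200 receptor family, had 5.50, 26.6, 8.92, 2.59 and 0.61 TPM in OKS + DsRed and 10.2, 37.5, 23.1, 7.02 and 5.29 TPM in OKS + FoxO6. Rasal3, a Ras GTPase-activating protein, was listed at 0 on days 0, 5 and 7 of OKS + DsRed, with 0.41 and 4.67 TPM on days 1 and 3 from 1 read each, so its peak in that arm rests on these reads. It had 2.54, 25.3, 23.8, 18.1 and 6.90 TPM in OKS + FoxO6. Of 5 macrophage markers, Adgre1, Csf1r, Ptprc and C1qa had at most 3 reads in each library. The summed level of the 5, nearly all from Cd68, came to 7.95, 52.98, 53.7, 20.4 and 18.8 TPM in OKS + DsRed and to 25.6, 21.6, 24.0, 24.9 and 16.2 TPM in OKS + FoxO6.

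The first 20 members by the smaller peak were Gm38356, Gm13092, Gm48275, Spink2, Tmprss11b, Hist1h3i, Strip2, Rasal3, Gm47327, Gprin3, 4931408C20Rik, Cd200r2, Itga4, Mill2, Plcb1, Abca1, Ndst3, Serpini1, Ltf and 1810049J17Rik. Several rest on very few reads. Gm38356 had 74 reads over the 10 libraries, Gm13092 13, Gm48275 36, Spink2 25, Hist1h3i 19 and Gm47327 10. Their peaks depend on values at or near 0 on days 0 and 7, where the added 1 sets the size. Over all members, 15 had fewer than 100 reads (15% against 5.41% of all genes) and 27 had at most 3 reads in at least 1 library of days 0 and 7. The days of the peak could be as low: 12 members had at most 3 reads in at least 1 library of days 1 and 3. In OKS + FoxO6, Gm13092 had 0 reads on day 1 and 6.06 on day 3. Hist1h3i, Dynlt1c, Pcdhgb6, Spin2c, Zxda and the pseudogenes share sequence with close relatives, and their values are uncertain where reads could be split among copies.

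By annotation, 90 members were protein coding, 3 were lincRNAs, 4 were processed pseudogenes and 3 were of other kinds. On the X chromosome lay 11 members (11% against 3.38% of all genes). The members' mean effective length had a median of 3412 bases, against 2469 bases over all genes, and 38% exceeded 4000 bases, against 21.0%. The libraries of OKS + DsRed at day 0 and of OKS + FoxO6 at day 7, in which long transcripts were low, are both used as the base of the peak. With the trend with length removed from each library, 73 of the 100 members were chosen again.

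Among the gene lists looked at for the same course, a peak above 0 in both arms was found for 10 of 20 p53 targets, 13 of 26 kinesin genes, 19 of 52 G2/M phase genes and 4 of 7 Hedgehog pathway genes, against 17.8% of all genes. None of these genes is a member, so their peaks were under 0.715 in at least 1 arm. It was found for 1 of 42 S phase genes and for 0 of 25 genes of cholesterol synthesis and uptake, 0 of 26 of ribosome biogenesis, 0 of 23 of glycolysis and hypoxia, 0 of 23 of the type I interferon response, 0 of 14 epithelial and 0 of 11 pluripotency genes. In the shift between the arms, 24 of the 52 G2/M phase genes and 14 of the 41 S phase genes tested were lower in OKS + FoxO6, where 7.09% of all genes tested were. With edgeR 0 genes of either list were higher, also at an unadjusted p under 0.05, and DESeq2 called 0 higher as well.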

How the data were processed

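RNA-seq of 10 libraries of infected MEFs was used, 1 for each of 2 arms and 5 days, grouped by their labels. According to the study's methods and the submitters' processing notes, reads were mapped with bowtie2 within RSEM against the GENCODE M13 transcripts (mm10). The authors deposited RSEM's expected counts, not normalized. The deposited TPM are RSEM's own, from the same run. In the authors' joint matrix, 25 gene symbols had been turned into dates, so symbols were taken by gene ID. Coordinates are those of GENCODE M21 (GRCm38).

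Levels were compared as log2(TPM + 1), which understates the change of low genes. The expected counts, 1208379 to 2225750 per library, were rounded and fitted with edgeR 4.0.16 in R 4.3.3 (quasi-likelihood test, TMM, filterByExpr, day as a factor, adjusted p under 0.05, common dispersion 0.034). The fit was tested on simulated data: with 200 of 10861 genes set to a 4-fold change, it found 190 of them and 10 others. The simulated counts were independent, with the common dispersion and the same change on every day. They do not measure the recovery of smaller changes, nor the effect of libraries from a shared culture. The standard errors given with edgeR were derived from its test, as the absolute log2 fold change divided by the square root of the F statistic. DESeq2 1.42.0 was an alternative. Python 3.11.15 with numpy 2.4.6, pandas 2.3.3 and statsmodels 0.14.6 did the rest.

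The members, lists, motifs and tests were chosen with earlier results of these data known. Genes named are the first 20 and last 5 members, the 5 just outside, members of the lists or of well-known roles, the 10 highest and the lower members of the shift, the 5 highest and lowest by day 5, Foxo6 and the cell type markers. Results of 1 gene are not reported here.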

Additional observations from a re-analysis of the deposited data

How the results depend on the processing

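The list of members changed most with the days used. Of the 100 members, 47 were chosen again with a minimum mean TPM of 1, 36 with the largest of days 0, 5 and 7 as the base, and 11 to 60 with 1 day left out, where 60 were kept without day 3, 58 without day 1, 14 without day 0 and 11 without day 7. The other settings, a pseudocount of 0.1 or 5, CPM with TMM in place of TPM, a minimum mean TPM of 10, the length trend removed and at least 100 reads, kept 94, 81, 70, 72, 73 and 85. In the shift between the arms, the fit without a day term called 125 genes higher and 44 lower, against 756 and 782, and 4 and 1 members against 24 and 9. Without the filter on low counts 1148 genes were higher. With 1 day left out, 362 to 792 genes were higher and 293 to 816 lower, and 12 to 28 members higher and 1 to 9 lower. DESeq2 called 23 members higher and 5 lower, and 7 of the 33 calls were lost with it. The cause of these changes was not tested.

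For single days, a pseudocount of 0.1 gave 24 members over 2-fold higher on day 0 and CPM gave 8, against 15. CPM gave 3 members lower on day 5, against 5, and 7 on day 7, against 14. With a difference of over 1 required, the day 5 level was above days 0 and 7 for 14 members in OKS + DsRed, 31 in OKS + FoxO6 and 6 in both, against 64, 90 and 61. No result reversed, and 82 of the alternative counts stayed within 1.5 times the count given while 27 did not. The length trend outside the list of members, the minimum of 100 reads and the mean TPM of each arm taken alone were chosen after seeing the data. So was leaving out day 0 or 7 in the list and for the day 5 level. The alternatives for the count of members with day 5 farther below days 1 and 3 in OKS + DsRed were also chosen then. The depth limits members with few reads, and with 1 library per arm and day no replicate error can be given for a single day. The day term of the fit pairs the libraries of the 2 arms, and each group holds 1 library, so no further pairing by replicate number exists.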
